A study of Mus musculus with 6 samples.

Results

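Transcripts of 10 genes of the restriction point of the cell cycle were read in mouse embryonic fibroblasts (MEFs): the INK4 inhibitors Cdkn2a, Cdkn2b, Cdkn2c and Cdkn2d, the CIP/KIP inhibitors Cdkn1b and Cdkn1c, the D cyclins Ccnd1, Ccnd2 and Ccnd3, and Rb1. The genes were picked by symbol. All 10 were found among the 43346 genes of the count table and all 10 passed the filter on low counts. The cells were primary fibroblasts of C57BL/6 embryos at passage 9. One group of 3 libraries was exposed to 3 µM erastin for 24 h, and the other group of 3 received DMSO, the solvent. Erastin blocks cystine uptake and is used to bring on ferroptosis, an iron-dependent form of cell death. The design text states triplicate DMSO and erastin cultures, but the labels do not say whether these came from separate embryos. The p-values therefore measure the spread between these libraries, which may be technical.

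In the textbook scheme, D cyclins accumulate in response to growth factors, bind the kinases CDK4 and CDK6 and start the phosphorylation of RB1. RB1 then lets go of E2F transcription factors, which switch on the genes of DNA replication. INK4 proteins bind CDK4 and CDK6 and keep D cyclins off them, and CIP/KIP proteins bind whole cyclin-kinase complexes. The Cdkn2a gene makes a pair of unrelated proteins from separate first exons, the INK4 inhibitor p16 and ARF, which restrains MDM2 and so stabilizes p53. In mouse fibroblasts the Cdkn2a and Cdkn2b genes, which lie side by side, are switched on as the cells are passaged and are known for their part in culture senescence.

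The neighbouring promoters of Cdkn2a and Cdkn2b are shown because the counts of Cdkn2a cannot tell its transcripts apart. On the mm10 build (GRCm38, GENCODE M21 annotation) Cdkn2a spans chr4:89274471-89294653 on the minus strand. The transcript with the p16 first exon starts with exon 1 at chr4:89281986-89282192, and the one with the ARF first exon starts with exon 1 at chr4:89294334-89294653. Both continue into the same exon 2 at chr4:89276645-89276985, and 575 of the 1172 exonic bases (49.1%) belong to both. The lines below give the stretch upstream of each start, 5′ to 3′ on the gene's strand, from RefSeq on GRCm38.p6, without bases that the annotation puts in an exon. Capitals mark the motif letters found, other than GC boxes.
Cdkn2a, ARF start, chr4:89294654-89294869: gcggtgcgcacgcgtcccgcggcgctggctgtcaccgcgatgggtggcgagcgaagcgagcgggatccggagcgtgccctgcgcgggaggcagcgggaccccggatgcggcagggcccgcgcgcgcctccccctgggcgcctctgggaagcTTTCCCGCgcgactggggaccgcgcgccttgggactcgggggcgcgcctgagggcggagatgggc
Cdkn2a, p16 start, chr4:89282193-89282442: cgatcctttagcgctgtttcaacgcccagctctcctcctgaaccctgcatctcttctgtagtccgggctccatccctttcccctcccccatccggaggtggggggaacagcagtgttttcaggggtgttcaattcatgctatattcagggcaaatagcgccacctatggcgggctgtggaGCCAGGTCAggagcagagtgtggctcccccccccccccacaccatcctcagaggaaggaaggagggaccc
Cdkn2b start, chr4:89311040-89311282: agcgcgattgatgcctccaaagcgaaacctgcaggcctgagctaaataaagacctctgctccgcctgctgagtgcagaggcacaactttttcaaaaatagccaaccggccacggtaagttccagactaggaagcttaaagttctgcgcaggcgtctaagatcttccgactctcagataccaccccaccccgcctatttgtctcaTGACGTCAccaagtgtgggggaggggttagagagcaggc

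The ARF stretch held an E2F motif 99 to 92 bases before the RefSeq start, and the Cdkn2b stretch held a cAMP response element 46 to 39 bases before it. The p16 stretch held the letters of an antioxidant response element, the motif bound by NRF2, 70 to 62 bases before its start. The search covered 250 bases before the start on both strands for E2F (TTTCCCGC, TTTCGCGC, TTTGCCGC, TTTGGCGC), the cAMP response element (TGACGTCA), AP-1 (TGACTCA), FOXO (GTAAACA), the antioxidant response element (TGACNNNGC), the E-box (CACGTG) and the GC box (GGGCGGG) (AP-1 letters followed by GC also read as the antioxidant response element). Of 32851 promoters of that length, 1.86% held an E2F motif, 1.55% the cAMP response element and 10.2% the antioxidant response element. The shares for AP-1, FOXO, the E-box and the GC box were 4.46%, 3.17%, 6.02% and 23.4%. Among the 9 windows of 6 member genes, the upstream start of Ccnd3 also held FOXO (TGTTTAC) and antioxidant response element (TGACGGAGC) letters, GC boxes stood before both starts of Ccnd3, and Cdkn1b held none of the motifs. GC boxes were also found in windows of Cdkn2c and Cdkn2d, at bases that the GENCODE annotation puts in exons of these genes. Cdkn1c, Ccnd1, Ccnd2 and Rb1 were not scanned. A match of letters does not show that a factor binds there.

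Total counts were 13333911 to 18505571 in the DMSO and 16800789 to 20509970 in the erastin libraries, and 3 counts, used as the detection floor, were worth 0.14 to 0.234 CPM (counts scaled by library size with TMM factors). The fibroblast markers summed to 28495 to 29691 CPM with DMSO and to 16751 to 18705 CPM with erastin, and 7 of the 8 (Col1a1, Col1a2, Col3a1, Vim, Pdgfra, Pdgfrb and Thy1, but not Dcn) fell. Epithelial markers summed to at most 3.17 CPM, endothelial ones to at most 9.85 CPM and haematopoietic ones to at most 16.9 CPM in any library; no marker was at 0 in all 6. Muscle markers, of which only Des passed the filter on low counts, summed to 35.5 to 45.3 CPM with DMSO and 65 to 68.4 CPM with erastin. Neural ones, of which only Tubb3 passed it, summed to 56.3 to 81.9 and 37 to 45.7 CPM. Des and Kdr, an endothelial marker, rose by 0.72 and 1.38 on the log2 scale, and Tubb3 fell by 0.74. Their part in the results below was not tested. DMSO replicate 3 stood apart from the other DMSO libraries on the second principal component of log2 CPM, at -43.9 against 30.6 and 19.6, so results that rest on it are also given without it.

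In the DMSO libraries, which describe the passage 9 cells without erastin, the transcripts of the cell cycle brakes linked to senescence were abundant. All libraries were at passage 9, so whether these levels changed with passage cannot be judged here. Between genes, levels are compared as CPM per kilobase of annotated exon. Cdkn2a stood at 129, 130 and 158 CPM per kilobase in DMSO replicates 1, 2 and 3 (mean 139 ± 16.5, SD, n = 3), above 98.1% of the 14000 genes tested. Cdkn2b stood at 124, 121 and 140 CPM per kilobase (mean 128 ± 10.4, SD, n = 3), above 97.9%. Within each DMSO library the ratio of Cdkn2b to Cdkn2a was 0.889 to 0.959 on this scale. It rests on the length used, since the longest transcript of each gene gave DMSO means of 182 for Cdkn2a and 128 for Cdkn2b. Cdkn2a without DMSO replicate 3 averaged 129 CPM per kilobase and Cdkn2b 123.

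The other INK4 genes were far lower. Cdkn2d (p19INK4d) had a DMSO level of 6.68 ± 1.11 CPM per kilobase and Cdkn2c (p18) one of 4.95 ± 0.802 (SD, n = 3 each). Together Cdkn2a and Cdkn2b made up 49.7% ± 1.04 and 46.1% ± 0.835 of the INK4 reads per kilobase. Of the CIP/KIP genes, Cdkn1c (p57) stood at 16.8 ± 1.19 and Cdkn1b (p27) at 8.04 ± 1.06 CPM per kilobase (SD, n = 3 each), and the library values of Cdkn1b overlapped those of Cdkn2d. Cdkn1a (p21), the p53-induced CIP/KIP gene, stood at 210.4 ± 9.79 CPM per kilobase.

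Ccnd2 was the most abundant of the 10 genes in DMSO, at 233, 210 and 211 CPM per kilobase (mean 218 ± 13.1, SD, n = 3), above 98.9% of the genes tested. Ccnd1 followed at 136 ± 9.38 and Ccnd3 at 11.9 ± 0.802 CPM per kilobase. The annotated exons of Ccnd3 come to 8775 bases over 21 transcripts. Its longest transcript (Ccnd3-206, 3858 bases) is annotated as a retained intron, and its longest coding one (Ccnd3-202) has 2113 bases. The level, rank and share of Ccnd3 may thus be too low on either length used here. Rb1 was lowest, at 2.51 ± 0.127 CPM per kilobase, above 36.4% of the genes tested. The descending order of DMSO levels was Ccnd2, Cdkn2a, Ccnd1, Cdkn2b, Cdkn1c, Ccnd3, Cdkn1b, Cdkn2d, Cdkn2c and Rb1. Library values overlapped between Cdkn2a and Ccnd1, between Ccnd1 and Cdkn2b, and between Cdkn1b and Cdkn2d, and the other neighbours in that order were separate. Divided by the longest transcript instead of all exons, Ccnd3 (27.2 CPM per kilobase) ranked above Cdkn1c (18), and the order was otherwise the same. Cdk4 and Cdk6, the kinase genes of the D cyclins, chosen here after their values were seen, stood at 100.0 ± 3.21 and 3.53 ± 0.0438 CPM per kilobase in DMSO (SD, n = 3 each).

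**Figure D1:**
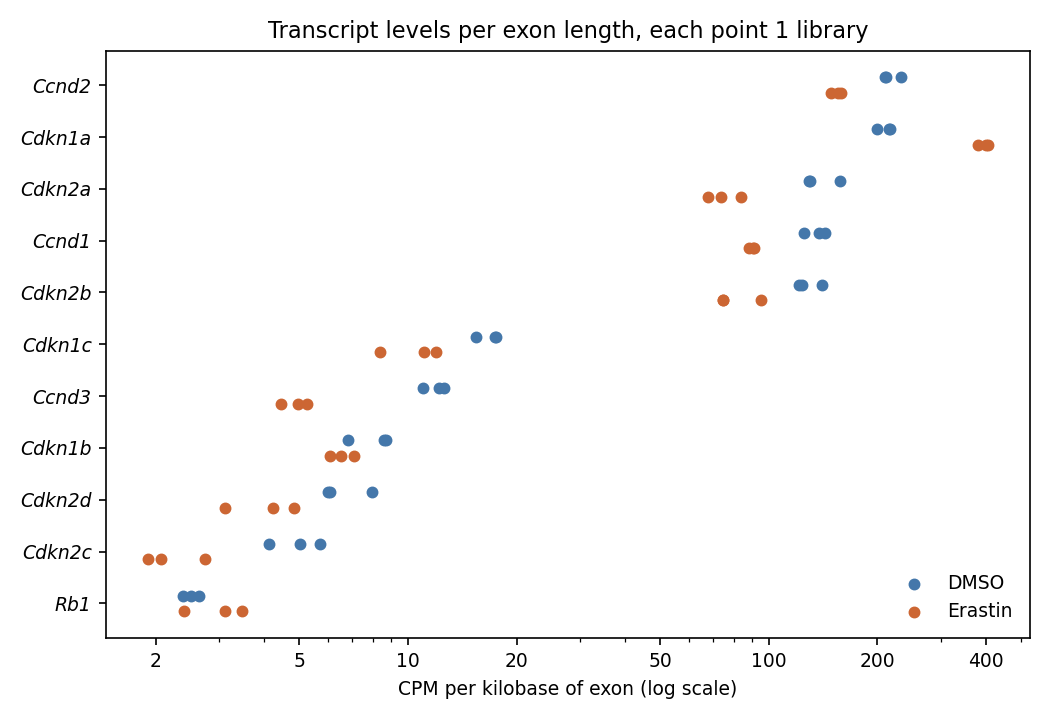
Transcript levels in CPM per kilobase of exon (log axis) for the 10 genes and Cdkn1a, with 1 point per library, DMSO in blue and erastin in orange, ordered by the DMSO mean. Ccnd2, Cdkn1a, Cdkn2a, Ccnd1 and Cdkn2b form an abundant set at DMSO means of 128 to 218, and the others lie at 16.8 or below.

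With erastin, 8 of the 10 genes fell and 0 rose: all 4 INK4 genes, Cdkn1c and all 3 D cyclins passed as lower, while Cdkn1b and Rb1 did not pass. Among all 14000 genes tested, 43.1% passed, 21.6% as higher and 21.5% as lower (edgeR quasi-likelihood test, adjusted p-value under 0.05). The median log2 fold change was -0.67 over the 10 genes and -0.0014 over all genes. The unadjusted edgeR p-values of the genes that did not pass were 0.0321 (Cdkn1b, lower) and 0.145 (Rb1, higher). Of all genes that DESeq2 called, 50.2% were higher, and of the 10 genes it called the same 8 lower and 0 higher. In the same 8 genes the 3 erastin libraries all lay below the 3 DMSO libraries; 52.5% of all genes tested were separated in one direction or the other. Because these are bulk samples, fewer cells that express a gene and less of its RNA per cell cannot be told apart.

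**Figure D2:**
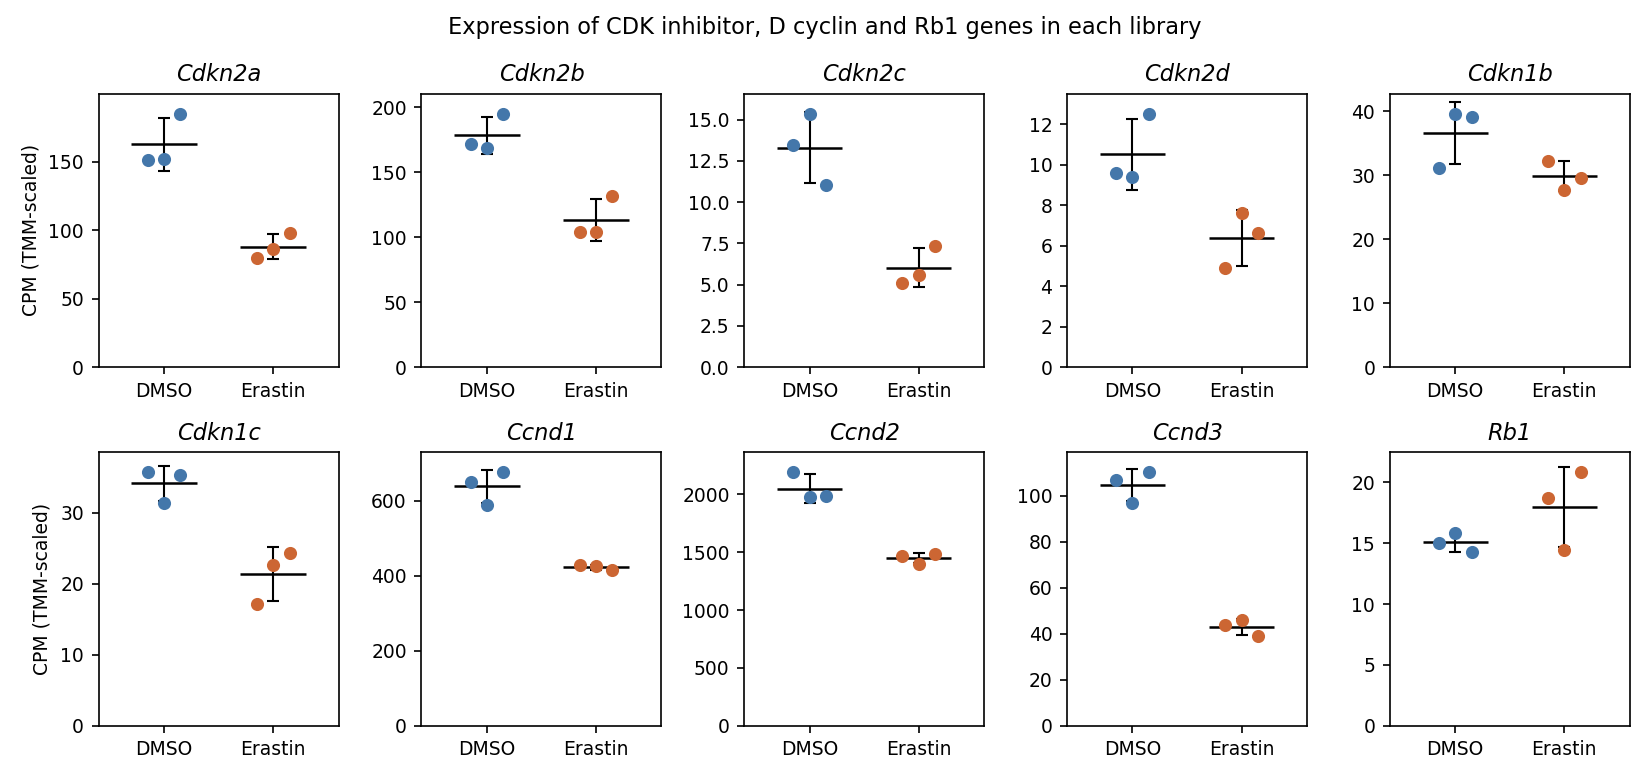
TMM-scaled CPM of each gene in each library, on linear axes that start at 0; points are libraries, and the bar and whiskers are the mean and SD of 3 libraries. The groups overlap only in Cdkn1b and Rb1.

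The D cyclins fell to different extents. Ccnd3 (ENSMUSG00000034165.12; chr17:47505051-47599691) went from 107, 96.8 and 110.3 CPM with DMSO to 43.6, 46.0 and 39.0 CPM with erastin. The groups were far apart relative to the spread within each, and the change came to a log2 fold change of -1.29 with SE 0.09 (edgeR adjusted p = 8.04e-08), and Ccnd3 fell by 59.1%. Ccnd1 (ENSMUSG00000070348.4; chr7:144929931-144939925) went from 650, 589 and 675 CPM to 427, 425 and 415 CPM (log2 fold change of -0.59 with SE 0.07, edgeR adjusted p = 8.16e-06). The erastin libraries of Ccnd1 varied little, with a coefficient of variation of 1.57% against 6.92% with DMSO. Ccnd2 (ENSMUSG00000000184.9; chr6:127125162-127152193), the most abundant of them, went from 2191, 1973 and 1985 CPM to 1466, 1401 and 1488 CPM (log2 fold change of -0.50 with SE 0.07, edgeR adjusted p = 2.76e-05). The 95% interval of the Ccnd3 log2 fold change, -1.49 to -1.09, lay below those of Ccnd1 (-0.74 to -0.44) and Ccnd2 (-0.64 to -0.36), which overlapped each other.

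Inside each library, Ccnd3 also fell relative to its relatives. The ratio of Ccnd1 to Ccnd3 per kilobase was 11.3, 11.3 and 11.4 in the DMSO libraries and 18.3, 17.2 and 19.8 in the erastin libraries. Ccnd2 to Ccnd3 was 16.8 to 19.1 with DMSO and 28.4 to 35.6 with erastin, also without overlap. Ccnd2 to Ccnd1 overlapped between groups, at 1.47 to 1.69 and 1.65 to 1.79. No test of these ratios was made. The share of Ccnd3 in the D cyclin reads per kilobase was 3.27% ± 0.137 with DMSO and 1.97% ± 0.187 with erastin, while Ccnd2 held 59.6% ± 1.86 and 62.0% ± 1.09 and Ccnd1 37.1% ± 1.72 and 36.1% ± 0.902 (SD, n = 3 each). With the longest transcript as length the Ccnd3 share was 5.21% with DMSO and 3.15% with erastin. On that length Ccnd1 and Ccnd3 stood at 171 and 27.2 CPM per kilobase with DMSO and 113 and 11.1 with erastin, so the ratios are lower. A fixed length scales the ratios of both groups alike, so their order between groups cannot change with it. The longest transcript of Ccnd3 is a retained intron, and its share may be too low on either length. The summed D cyclin level was 383, 346 and 367 CPM per kilobase with DMSO and 251, 244 and 251 with erastin. Exons of Ccnd1 share 23.4% of their bases with the gene LTO1 on the opposite strand and those of Ccnd3 4.11% with Bysl. Neither neighbour passed (LTO1 0.03, Bysl -0.02 on the log2 scale), and whether the counting used the strand is not given in the sources used here.

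The adjacent INK4 genes fell together. Cdkn2a (ENSMUSG00000044303.6) went from 151, 152 and 185 CPM with DMSO to 79.7, 86.4 and 98.3 CPM with erastin, a log2 fold change of -0.89 with SE 0.10 (edgeR adjusted p = 5.98e-06). Cdkn2b (ENSMUSG00000073802.4; chr4:89306299-89311039), which encodes p15, went from 172, 169 and 195 CPM to 104, 104 and 132 CPM (log2 fold change of -0.66 with SE 0.10, edgeR adjusted p = 9.24e-05). In both genes DMSO replicate 3 was the highest DMSO library and erastin replicate 3 the highest erastin library. Without DMSO replicate 3 the log2 fold changes were -0.785 and -0.592, with edgeR adjusted p-values of 9.87e-06 and 0.000288. A correction for GC content and transcript length made both falls smaller, at -0.638 and -0.473 (edgeR adjusted p = 0.000336 and 0.00168). The ratio of Cdkn2b to Cdkn2a was 1.01 to 1.13 in the erastin libraries, above all DMSO libraries, and this difference was not tested. Which of them was higher with erastin turned with the length used: with the longest transcript the means were 98.5 CPM per kilobase for Cdkn2a and 81.4 for Cdkn2b. Even after the fall, Cdkn2a at 75.2 ± 8.02 and Cdkn2b at 81.4 ± 11.7 CPM per kilobase (SD, n = 3 each) stood above 96.6% and 96.9% of the genes tested. How much of the Cdkn2a change belonged to the p16 transcript and how much to the ARF transcript could not be read from gene counts.

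The less abundant INK4 genes also passed, with wider errors. Cdkn2c (ENSMUSG00000028551.10; chr4:109660876-109667189) went from 13.5, 15.4 and 11.1 CPM to 5.12, 5.57 and 7.36 CPM (log2 fold change of -1.15 with SE 0.22, edgeR adjusted p = 0.000637). Its counts ran from 93 to 277 reads per library, and DMSO replicate 3, high for Cdkn2a and Cdkn2b, was the lowest DMSO library here. Without that library the log2 fold change of Cdkn2c was -1.263 (edgeR adjusted p = 0.000353). Cdkn2d (ENSMUSG00000096472.1; chr9:21288410-21291407) went from 9.60, 9.42 and 12.5 CPM to 4.89, 7.60 and 6.64 CPM (log2 fold change of -0.72 with SE 0.23, edgeR adjusted p = 0.0213). This call rested on single libraries: it did not pass without DMSO replicate 3 (a log2 fold change of -0.583, edgeR adjusted p = 0.0768) or without erastin replicate 1 (-0.562, edgeR adjusted p = 0.103), nor after a correction for GC content and transcript length (-0.545, edgeR adjusted p = 0.0733). Over its 17 alternatives the adjusted p-value ran from 0.0143 to 0.103. The summed INK4 level was 264, 263 and 310.3 CPM per kilobase with DMSO and 148, 155 and 186 with erastin.

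Of the CIP/KIP genes, Cdkn1c passed as lower, Cdkn1b did not pass and Cdkn1a passed as higher. Cdkn1c (ENSMUSG00000037664.8; chr7:143458339-143461050), an imprinted gene expressed from the maternal allele, went from 35.7, 31.4 and 35.4 CPM to 17.1, 22.6 and 24.4 CPM (log2 fold change of -0.68 with SE 0.14, edgeR adjusted p = 0.00136). All DMSO libraries lay above all erastin libraries, and erastin replicate 1 was the lowest. An annotated antisense gene, Gm44732, covers 30.7% of the exonic bases of Cdkn1c. It was not found among the genes of the count table, so its change could not be read. Cdkn1b (ENSMUSG00000003031.10; chr6:134920401-134925513) had 31.1, 39.6 and 39.2 CPM with DMSO and 32.3, 27.7 and 29.6 CPM with erastin. DMSO replicate 1 fell among the erastin libraries, and the log2 fold change of -0.29 (SE 0.12, 95% interval -0.56 to -0.03) did not pass, with an edgeR adjusted p = 0.0693. Without DMSO replicate 1 it was -0.399 and passed (edgeR adjusted p = 0.0223). It also passed after the correction for GC content and length (-0.400, edgeR adjusted p = 0.0158). The range of its adjusted p-value over 17 alternatives was 0.0158 to 0.235. Cdkn1c after the same correction was at -0.470 (edgeR adjusted p = 0.015). Without the correction its 95% interval, -0.98 to -0.37, overlapped that of Cdkn1b, so the calls do not separate these genes from each other. Cdkn1a (ENSMUSG00000023067.9), named for contrast, rose from 764, 771 and 708 CPM to 1436, 1416 and 1351 CPM (log2 fold change of 0.91 with SE 0.07, edgeR adjusted p = 7.5e-08). In CPM per kilobase of exon Cdkn1a reached 394 ± 12.6 with erastin, above the 154 ± 4.82 of Ccnd2 (SD, n = 3 each). With DMSO Ccnd2 and Cdkn1a were at 218 ± 13.1 and 210.4 ± 9.79. This comparison rests on the length used. Divided by its longest transcript, Ccnd2 stood at 324 with DMSO and 229 with erastin, and Cdkn1a was not read on that length.

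Rb1 (ENSMUSG00000022105.6; chr14:73183673-73325822), whose protein is the substrate of the D cyclin kinases, showed no detectable change. It had 15.0, 15.9 and 14.3 CPM with DMSO and 18.7, 14.4 and 20.8 CPM with erastin (log2 fold change of 0.26 with SE 0.17, edgeR adjusted p = 0.235). Erastin replicate 2 lay within the DMSO range, and the 95% interval of the log2 fold change, -0.10 to 0.61, leaves room for a rise. After the correction for GC content and length the log2 fold change of Rb1 was 0.096 (edgeR adjusted p = 0.673). Exons of Rb1 share 8.11% of their bases with Rcbtb2 and 6.78% with Lpar6 on the opposite strand; Rcbtb2 fell by 0.91 in log2 units (edgeR adjusted p = 3.55e-05) and Lpar6 did not pass (-0.38).

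**Figure D3:**
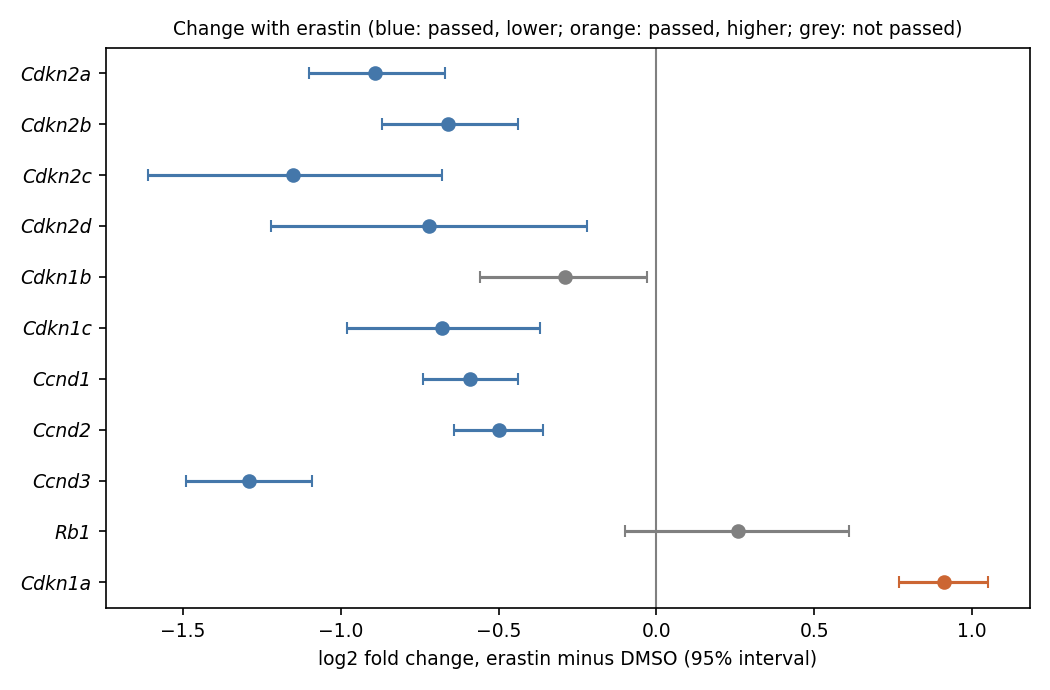
Log2 fold change of erastin over DMSO (x axis) with its 95% interval for the 10 genes and Cdkn1a, from 3 libraries per group. Blue intervals passed as lower, the orange one (Cdkn1a) as higher, and the grey ones, Cdkn1b and Rb1, did not pass; Ccnd3 has the lowest value, -1.29.

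The order of the genes with erastin was Ccnd2, Ccnd1, Cdkn2b, Cdkn2a, Cdkn1c, Cdkn1b, Ccnd3, Cdkn2d, Rb1 and Cdkn2c by CPM per kilobase. Ccnd1, Cdkn2b and Cdkn2a overlapped in turn, as did Ccnd3, Cdkn2d, Rb1 and Cdkn2c, each with the next. Divided by the longest transcript, Cdkn2a (98.5 CPM per kilobase) ranked above Cdkn2b (81.4), and Ccnd3 (11.1) ranked above Cdkn1b (6.56). Ccnd3, which stood above 74.3% of the genes tested with DMSO, stood above 52.2% with erastin. Cdkn2c went from 53.1% to 34.0% on that scale, and Rb1 from 36.4% to 40.1%. Among the 10 genes the coefficient of variation over libraries was 5.08% (Rb1) to 16.6% (Cdkn2d) with DMSO and 1.57% (Ccnd1) to 21.6% (Cdkn2d) with erastin.

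The partners of these proteins were counted beside the 43.1% of all genes tested that passed. Of 19 G1 genes tested, 2 rose, 4 fell and 13 did not pass, with a median log2 fold change of -0.07. The list holds kinases, cyclins, pocket proteins, E2F factors and partners of these, and also the inhibitor gene Cdkn1a and Cdc25a. The risers were Cdkn1a and Cdk7, a kinase that activates other CDKs (51.2 ± 3.41 to 85.6 ± 4.96 CPM, a log2 fold change of 0.74, edgeR adjusted p = 1.22e-05). Ccne1, the E cyclin that acts after the D cyclins, fell from 40.1 ± 4.15 to 23.9 ± 0.753 CPM (a log2 fold change of -0.75, edgeR adjusted p = 0.000109; SD, n = 3 each). Cdk4 also fell, by 0.29 in log2 units (edgeR adjusted p = 0.00289), and Cdk6 did not pass (-0.17, edgeR adjusted p = 0.196); these names were chosen after their values were seen.

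Genes that set the stability of p27 and the D cyclins were mixed, with 4 of 17 higher, 5 lower and a median of -0.04. Thus 52.9% passed, beside 43.1% of all genes tested. The 5 lower became 3 without DMSO replicate 1, DMSO replicate 2, erastin replicate 1 or erastin replicate 2. Cks1b, the cofactor with which SKP2 marks p27 for destruction, fell from 41.3 ± 2.62 to 16.8 ± 1.26 CPM (a log2 fold change of -1.30, edgeR adjusted p = 7.14e-07; SD, n = 3 each). Skp2 itself, chosen after its values were seen, fell by 0.78 on the log2 scale (edgeR adjusted p = 0.00319). Gsk3b, a kinase that marks cyclin D1 for export and breakdown, rose by 0.53 and Cul1, the scaffold of SCF ubiquitin ligases, by 0.51 (edgeR adjusted p = 7.95e-05 and 0.000174).

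Of 26 regulators of the Cdkn2a and Cdkn2b locus, 9 rose, 2 fell and 15 did not pass (median 0.22). The share that passed was 42.3%, close to the 43.1% of all genes tested (21.6% higher, 21.5% lower). The smallest p-values were those of Ets1, an activator of p16 (47.2 ± 3.31 to 89.6 ± 8.02 CPM, a log2 fold change of 0.93, edgeR adjusted p = 2.43e-06), Jarid2, a partner of the Polycomb complex PRC2 (10.3 ± 1.51 to 29.4 ± 6.3 CPM, 1.51, edgeR adjusted p = 8.88e-06), and Zbtb7a, a repressor of ARF (71.6 ± 5.76 to 118 ± 5.73 CPM, 0.72, edgeR adjusted p = 1.01e-05; SD, n = 3 each). The list holds activators and repressors of the locus, and its count has no single direction for Cdkn2a. Bmi1, the Polycomb repressor best known at this locus and chosen after its values were seen, did not pass (33.9 ± 2.79 and 36.7 ± 2.73 CPM, edgeR adjusted p = 0.443; SD, n = 3 each).

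Of 15 transcription factors known to act on D cyclin and Cdkn1b promoters and tested, 11 rose, 2 fell and 2 did not pass (median 0.60), beside 21.6% higher and 21.5% lower among all genes tested. The list was not sorted into activators and repressors, and its count has no single direction for the D cyclins or Cdkn1b. The AP-1 subunits Fosl1 and Jun rose by 3.07 and 1.74 and Klf4 by 1.39 in log2 units (adjusted p by edgeR = 3.96e-09, 3.09e-08 and 1.27e-08). The 3 FOXO genes of the list, Foxo1, Foxo3 and Foxo4, chosen after their values were seen, rose by 0.68, 0.38 and 0.66 (edgeR adjusted p = 0.000808, 0.00139 and 0.00505).

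Genes that RB1 and E2F control were lower in most cases: 15 of 22 fell, 1 rose and 6 did not pass, with a median of -0.77. Thus 72.7% passed, beside 43.1% of all genes tested. The leading genes by p-value were Mki67, Top2a and Ccna2, at -3.26, -2.32 and -2.87 in log2 units (adjusted p by edgeR = 1.9e-09, 7.73e-09 and 1.95e-08). With DMSO the passage 9 cells held 87.0 ± 20.4 CPM of Mki67, the gene of the proliferation marker Ki-67, and 33.8 ± 6.56 CPM of Ccna2 (SD, n = 3 each). The 1 riser, Cdt1, a licensing factor named after its value was seen, did not pass in 3 of the 6 fits that each left out 1 library. Those fits left out DMSO replicate 1, DMSO replicate 2 or erastin replicate 2 and called 0 of the list higher.

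Secreted factors linked to senescence did not move in one direction. Of 20 tested, 11 fell, 5 rose and 4 did not pass (median -0.48), so 80% passed beside 43.1% of all genes tested. The 5 that rose became 3 without erastin replicate 1 or without erastin replicate 2, and 4 without any one of the other libraries. Vegfa rose from 90.0 ± 5.36 to 375 ± 45.4 CPM, while the binding proteins of insulin-like growth factors Igfbp5 and Igfbp4 fell from 169 ± 19.7 to 45.1 ± 4.48 CPM and from 417 ± 7.65 to 145 ± 19.6 CPM (edgeR adjusted p = 1.01e-09, 4.31e-09 and 8.87e-09; SD, n = 3 each). The cytokine genes Il1a and Il1b had 0 reads in all 6 libraries, which allows up to 0.14 to 0.234 CPM depending on the library, and Il6 stood at 2.69 ± 0.78 CPM with DMSO and 2.30 ± 0.679 CPM with erastin (edgeR adjusted p = 0.693; SD, n = 3 each).

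Of 10 nuclear, lysosomal and p53-linked senescence markers, 3 rose, 4 fell and 3 did not pass (median -0.03). Thus 70% passed, beside 43.1% of all genes tested. Mdm2, the ligase that ARF restrains, rose from 208 ± 5.92 to 476 ± 17 CPM (a log2 fold change of 1.19, edgeR adjusted p = 7.25e-09), and Trp53, chosen after its values were seen, did not pass (112 ± 5.03 and 124 ± 12.2 CPM, edgeR adjusted p = 0.219; SD, n = 3 each). Lmnb1, the lamin gene whose loss marks senescent cells, fell by 1.25 and the chromatin gene Hmga1 rose by 1.26 in log2 units (adjusted p by edgeR = 7.65e-06 and 6.49e-06). The 4 that fell became 2 without DMSO replicate 2, 1 without erastin replicate 1 and 2 without erastin replicate 2.

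Among imprinted growth genes, the class to which Cdkn1c belongs, 7 of 14 tested fell, 2 rose and 5 did not pass (median -0.26). Thus 64.3% passed, beside 43.1% of all genes tested. The list was not sorted by the parental allele that is expressed, and its count has no single direction for Cdkn1c. Mest, Peg10 and Peg3 had log2 fold changes of -1.71, -1.09 and -0.94 (edgeR adjusted p = 1.51e-07, 3.21e-06 and 1.33e-06). Kcnq1ot1, chosen after its values were seen, is the noncoding transcript of the paternal chromosome that silences Cdkn1c in cis. It went from 19, 23.6 and 27.6 CPM with DMSO to 41.1, 42.7 and 31.6 CPM with erastin, without overlap (log2 fold change of 0.72 with SE 0.15, edgeR adjusted p = 0.00142). The other riser of the list, Plagl1, also chosen after its values were seen, rose by 0.80 on the log2 scale (edgeR adjusted p = 2.01e-05). Whether either riser bears on Cdkn1c was not tested. The allele that gave the Cdkn1c reads cannot be read from these counts.

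**Figure D4:**
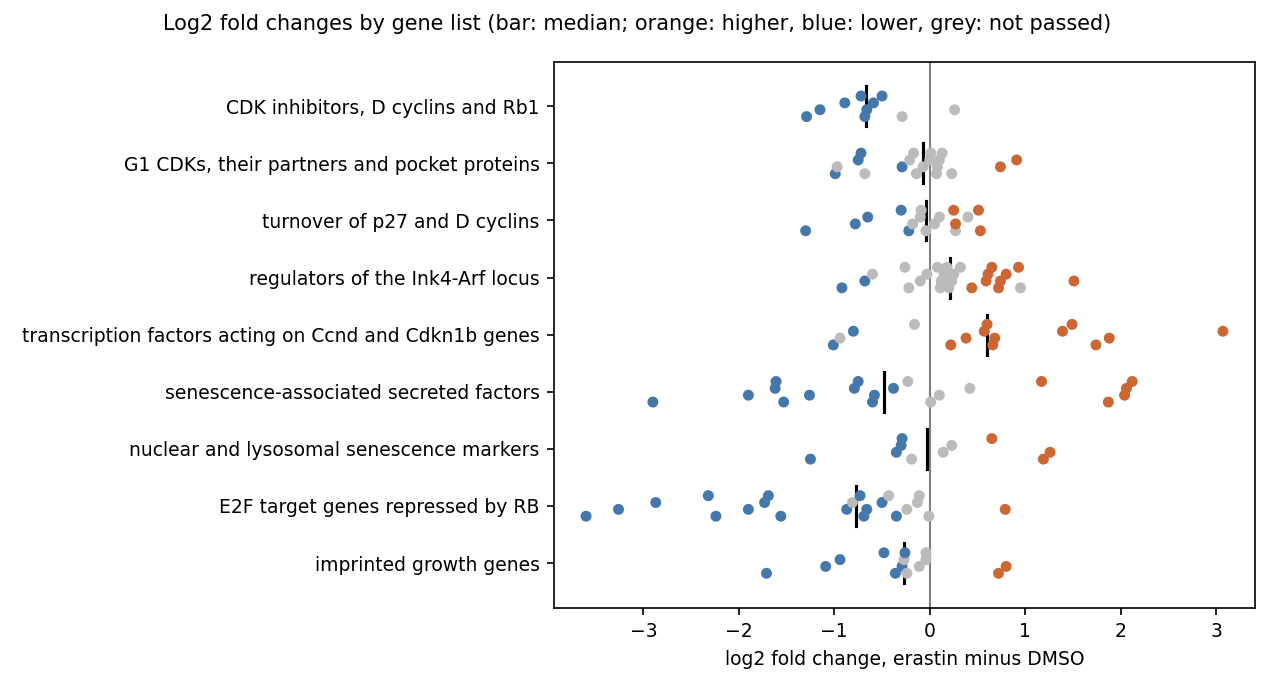
Log2 fold change of erastin over DMSO (x axis) for each tested gene of the 10-gene set and of the 8 related lists; vertical bars are medians, orange points passed as higher, blue points as lower and grey points did not pass. The median lies at -0.67 for the 10 genes, -0.77 for the E2F targets and 0.60 for the transcription factors.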

How the data were processed

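Total RNA depleted of ribosomal RNA was sequenced on an Ion Proton instrument, per the labels' protocols. The authors deposited whole-number read counts per gene, not normalized; the submitters' processing notes name HTSeq 0.9.1, SAMtools and mm10. The aligner, annotation release, strand setting and treatment of multiply mapped reads are not given in the sources used here. Identifiers without version were matched to GENCODE M21 (42462 of 43346). There were 0 unused columns of per-sample values.

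Counts were fitted with edgeR 4.0.16 in R 4.3.3 (TMM factors, filterByExpr at a minimum count of 10, quasi-likelihood test, treatment only, 3 against 3 libraries), with Benjamini-Hochberg adjustment over the 14000 genes kept and a threshold of 0.05; the script was tested on simulated data. Intervals are 95%. DESeq2 1.42.0, mgcv 1.9.3 (GC and length offset), other scalings and filters, the longest transcript as length, thinning, a replicate block and leaving out each library were alternatives. No pair of replicates agreed within counting noise (chi-square per degree of freedom at least 11.0). The floor covers counting error only. The genes and lists were chosen with earlier results of these data known. Named genes are the 10 genes, Cdkn1a, for each list the 3 tested genes leading by p-value, and list genes with 0 reads.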

Additional observations from a re-analysis of the deposited data

How the results depend on the processing

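The counts of all genes passing and of the 10 genes passing stayed within 1.5 times their values in all settings; 7 to 9 of the 10 genes passed as lower and 0 as higher. No log2 fold change changed sign. Cdkn2d no longer passed once GC content and length were offset (-0.545), with that offset plus the replicate block (-0.550), after thinning (-0.611) or after thinning with the block (-0.607). Cdkn1b passed with upper-quartile factors (-0.348), after the offset (-0.400), after the offset with the block (-0.393) and after thinning (-0.327). The offset also made the changes of Cdkn2a (-0.638), Cdkn2b (-0.473), Cdkn1c (-0.470) and Rb1 (0.096) smaller, with the same calls. Cdkn2c (-0.982), Ccnd1 (-0.576) and Ccnd3 (-1.169) were smaller as well, while the fall of Ccnd2 was larger (-0.587). Leaving out 1 library gave -0.867 to -0.562 for Cdkn2d and -0.399 to -0.231 for Cdkn1b. With the replicate block alone 8 of the 10 genes passed (Cdkn1b -0.289, Cdkn2d -0.730) and no call of the 10 changed; equally numbered libraries had correlations of 0.0401, 0.00379 and -0.0055, so the block rests only on a shared number. The median over all genes was -0.055 under upper-quartile scaling and 0.065 under total count scaling.

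List counts moved as follows. The turnover genes lower were 3 with total count scaling and 3 at an adjusted p-value under 0.01, the senescence markers lower 2 with total count scaling, 2 without a filter and 1 at 0.01, and the secreted factors higher 3 at 0.01. The E2F targets higher were 0 after thinning with the block and 0 at 0.01, and the imprinted genes higher were 1 after the offset with the block. Leaving out 1 library gave 3 to 5 turnover genes lower (3 without DMSO replicate 1 or 2 or erastin replicate 1 or 2), 1 to 4 senescence markers lower, 3 to 4 secreted factors higher (3 without erastin replicate 1 or 2) and 0 to 1 E2F targets higher. With the longest transcript as length, DMSO levels were 182 (Cdkn2a), 18 (Cdkn1c), 171 (Ccnd1), 324 (Ccnd2), 27.2 (Ccnd3) and 3.24 (Rb1) CPM per kilobase, and the shares of Ccnd1, Ccnd2 and Ccnd3 were 32.7%, 62.1% and 5.21% with DMSO and 32.0%, 64.9% and 3.15% with erastin. Apart from the settings whose construction uses fewer reads, libraries or another length, the cause was not tested. Cdkn2c and Cdkn2d had 93 to 277 and 105 to 170 reads per library; after thinning Cdkn2c still passed and Cdkn2d did not.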
